A study of Homo sapiens with 6 samples.

Results

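The STAT transcription factors are described here in shCtrl and shmiR155HG NK92 cells through 6 of their genes, *STAT2*, *STAT3*, *STAT4*, *STAT5A*, *STAT5B* and *STAT6*, which were chosen by their symbols among the 36601 genes of the count table. NK92 is a human NK cell lymphoma line that depends on IL-2, and both groups came from this line. The shCtrl cells carried a control shRNA and the shmiR155HG cells stably carried an shRNA against the lncRNA gene *MIR155HG*, the host of miR-155. Each group had 3 libraries of poly(A) RNA, all from cells given IL-2 at 1000 U/mL with IL-12 at 10 ng/mL for 12 h, so cells without cytokine were not part of the comparison. Neither the number of cell clones nor whether the libraries of a group came from separate cultures is given in the sources used here, and p-values therefore measure the spread between these libraries, which may be technical.

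STAT proteins wait in the cytoplasm as latent factors. A cytokine that binds its receptor brings Janus kinases together, these phosphorylate the receptor and then the STAT on a tyrosine, and the paired STATs enter the nucleus and bind DNA. In NK cells, IL-2 and IL-15 act mainly through STAT5A and STAT5B, IL-12 through STAT4, IL-21 through STAT3 and IL-4 through STAT6, while type I interferon acts through a complex with STAT2 and IRF9 named ISGF3. Values given in a row for a group follow the order of replicates 1, 2 and 3. The measurements below are of mRNA, and neither STAT protein nor its phosphorylation was measured by them.

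Of the 6 STAT genes, *STAT2* fell and *STAT5A* rose in shmiR155HG cells, and the other 4 were not called. The *STAT2* mRNA level came to 77.2% of the shCtrl level and that of *STAT5A* to 119.7%. Calls were made where edgeR's quasi-likelihood test gave an adjusted p below 0.05, in a fit across the 12263 genes that exceeded 1 CPM, a count per 1000000 counts of the library, in at least 2 libraries. All 6 members passed this filter. Under this rule 15.3% of all genes were called, 7.26% as higher and 8.02% as lower, against 2 of the 6 members, 1 in each direction. The groups did not overlap for the same 2 members, and for 30.8% of all genes.

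The total count lay between 33454786 and 39157264 per library, and the 6 STAT genes together received 15386 to 18638 of these counts. *MIR155HG*, the gene under the shRNA, received 73, 67 and 62 counts in the shCtrl libraries against 28, 19 and 10 in the shmiR155HG libraries. This check of the knockdown gave −1.78 on the log2 scale (SE 0.43) at an adjusted p of 0.00450. Of 10 NK cell markers, 9 passed the filter, with *NKG7* at a mean of 683.3 CPM and *NCAM1*, which encodes CD56, at 285.9 CPM, while *CD7* had at most 32 counts. The summed NK list spanned 3388 to 3487 CPM in shCtrl and 2699 to 2824 CPM in shmiR155HG libraries, with *GZMB* at 1165 to 1244 against 511.4 to 571 CPM. *GZMB* was called lower (−1.14 on the log2 scale, adjusted p = 7.03e-19 in edgeR), as were *PRF1* and *NCR3*. *KLRC1* was called higher and the other 5 of the 9 were not called, where 15.3% of all genes were called. The median log2 fold change of the 9 was 0.024. The T cell markers *CD3G*, *CD4*, *CD8A* and *CD5* had at most 3 counts per library and *CD8B* none. The summed B cell markers were 229.4 to 264.6 CPM in shCtrl and 341 to 344.2 CPM in shmiR155HG libraries, almost all of it *PAX5*, with *MS4A1* at no more than 5 counts. The summed T cell list spanned 88.9 to 98.4 CPM against 98.3 to 110.8, mostly from *TRAC* and *CD6*. The summed myeloid list spanned 22.4 to 32.5 CPM against 18.9 to 21.7, mostly from *ITGAM*, *FCGR3A*, which encodes CD16, and *CSF1R*. Among these B cell, T cell and myeloid markers, *PAX5* and *CD6* were called higher without overlap of the groups. Their log2 fold changes were 0.49 (adjusted p = 1.70e-09 in edgeR) and 0.61 (adjusted p = 0.0001). *ITGAM* was called lower (−0.60 on the log2 scale, adjusted p = 0.0161 in edgeR), with the groups overlapping. *LYZ* had no more than 3 counts and *MPO* 0. The epithelial and fibroblast list stayed below 0.7 CPM in every library, with *EPCAM*, *CDH1* and *COL1A2* at 0. The part of these shifts in the results below was not tested. In a bulk sample of this kind, fewer cells that make an mRNA and less of that mRNA per cell cannot be told apart.

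The 6 genes lie at 3 places in the genome, given here on hg38 from GENCODE release 44. *STAT5B* (ENSG00000173757, minus strand, chr17:42199176-42288633), *STAT5A* (ENSG00000126561, plus strand, chr17:42287547-42311943) and *STAT3* (ENSG00000168610, minus strand, chr17:42313324-42388540) are neighbours on chromosome 17. *STAT5B* and *STAT5A* share 1087 bases at their starts on opposite strands, and 1380 bases separate *STAT5A* from *STAT3*. *STAT2* (ENSG00000170581, minus strand, chr12:56341597-56360203) and *STAT6* (ENSG00000166888, minus strand, chr12:57095408-57132139) lie on chromosome 12. *STAT4* (ENSG00000138378, minus strand, chr2:191029576-191151596) lies on chromosome 2. The canonical transcripts have 24 exons for *STAT2*, *STAT3* and *STAT4*, 22 for *STAT6* and 19 for *STAT5A* and *STAT5B*.

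Because the shRNA is directed at the host transcript of miR-155, the mature miR-155 sequences are shown with the match found among the STAT mRNAs. Sequences of the miRNAs are from RefSeq (GRCh38.p14), with the seed, bases 2 to 8, in capitals. MiR-155-5p lies at chr21:25573983-25574006 and miR-155-3p at chr21:25574022-25574043, both on the plus strand within *MIR155HG*.
hsa-miR-155-5p: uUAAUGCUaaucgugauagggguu
hsa-miR-155-3p: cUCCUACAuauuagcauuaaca
The 7 bases that pair with the miR-155-5p seed (AGCATTA) occurred in the 3′UTR of the canonical transcript of none of the 6 STAT genes, against 11.9% of the 10759 genes of the fit that have a 3′UTR. The 7 bases that pair with the miR-155-3p seed (TGTAGGA) occurred once, in the last exon of *STAT5A*, against 10.4% of the same 3′UTRs. The stretch below is from the plus strand at chr17:42311770-42311794 of hg38, within the *STAT5A* 3′UTR, with the match in capitals.
*STAT5A* site: ctctgaggcTGTAGGActcgcagtc
Such a match is a description of the letters and not a measured site, and miR-155 itself was not measured by these libraries.

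The promoters were searched for 2 motifs of the proteins themselves, on both strands, in RefSeq windows of 300 bases (GRCh38.p14). These windows do not always hold the gene start of GENCODE. Those of *STAT5B* (chr17:42276342-42276641) and *STAT6* (chr12:57110240-57110539) lie inside the genes as placed above, so the GENCODE starts of these genes were not searched. TTCNNNGAA, the core of the GAS element bound by STAT dimers, occurred in none of the 9 windows of the 6 members, against 7.66% of all 35116 promoter windows. GAAANNGAAA, the core of the ISRE bound by ISGF3, also occurred in none of the 9, against 3.57% of all windows. Both motifs hold the letters GAA, so matches can overlap. These letters were not in these windows, and nothing follows for elements outside the windows.

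Levels of different genes were compared per length, as TPM, transcripts per 1000000 transcripts, from the counts divided by the summed exon length of each gene in GENCODE. In the TPM scale, *STAT5A* was the highest of the 6, with 75.0 ± 4.18 in shCtrl and 88.8 ± 5.22 in shmiR155HG cells (SD, n = 3 each). *STAT3* followed with 58.9 ± 1.46 and 59.1 ± 0.962 TPM, and *STAT5B* with 37.0 ± 2.29 and 36.7 ± 1.99 TPM. *STAT4* had 32.0 ± 2.01 and 31.0 ± 1.84 TPM. *STAT6* had 15.5 ± 0.476 and 15.2 ± 0.275 TPM, and *STAT2* was the lowest with 10.2 ± 0.447 and 7.81 ± 0.475 TPM. Within each group the libraries of neighbours in this order did not overlap, although *STAT5B* and *STAT4* came close in shCtrl cells, with 34.4 TPM in the lowest library of the former and 34.0 TPM in the highest of the latter. The order of the first 2 genes depends on the length that is used. With the longest transcript of each gene, *STAT3* came first with a mean of 93.9 TPM over the 6 libraries and *STAT5A* second with 87.3 TPM, and with the canonical transcript, a choice added after the data were seen, they had 76.1 and 78.6 TPM. The places of *STAT5B*, *STAT4*, *STAT6* and *STAT2* were the same with all 3 lengths.

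STAT2 is the subunit of ISGF3 that carries its activation domain and is used almost only in interferon signalling. The normalised level of *STAT2* was 21.4, 22.2 and 23.2 CPM in the shCtrl and 18.3, 16.1 and 17.3 CPM in the shmiR155HG libraries. The highest shmiR155HG library was below the lowest shCtrl library, and shmiR155HG replicate 2 was the lowest of the 6. The means were 22.3 ± 0.884 and 17.2 ± 1.11 CPM (SD, n = 3), which gives −0.37 on the log2 scale (SE 0.10, 95% interval −0.59 to −0.16, adjusted p = 0.0138 in edgeR). Without shmiR155HG replicate 2 the change was −0.33 with an adjusted p of 0.0754, so the call depends on that library. Without any 1 of the other libraries *STAT2* was called, at an adjusted p in edgeR from 0.0202 to 0.0498, the latter without shCtrl replicate 3. An absolute change of this size was larger than that of 87.4% of the genes tested.

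STAT5A is, with STAT5B, the factor through which IL-2 sustains the growth of NK cells. *STAT5A* had 112.6, 105.9 and 117.2 CPM in the shCtrl and 135.9, 139.9 and 125.9 CPM in the shmiR155HG libraries. Again the groups did not overlap, and the closest pair was shCtrl replicate 3 and shmiR155HG replicate 3. The means were 112 ± 5.68 and 134 ± 7.23 CPM (SD, n = 3), and the log2 fold change was 0.26 (SE 0.050, 95% interval 0.16 to 0.36, adjusted p = 0.000551 in edgeR), larger in absolute size than that of 78.5% of the genes tested. It was called without any 1 of the 6 libraries, with values from 0.22 to 0.30. A level of 119.7% of shCtrl lies just under a fold of 1.2, so that with the thresholds stated by the study, as applied here to the deposited counts, *STAT5A* was not called whereas *STAT2* was.

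**Figure D1:**
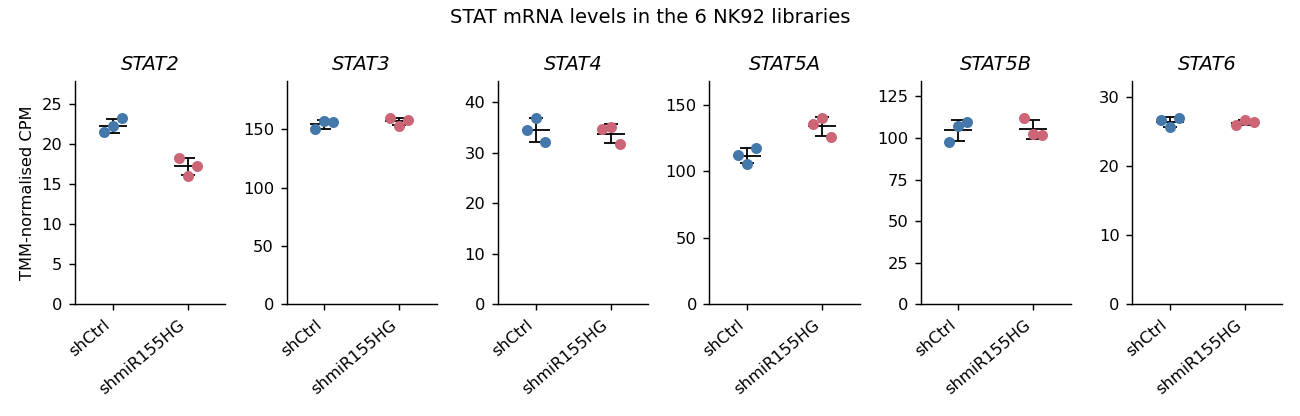
Normalised CPM (vertical axis, starting at 0, with its own scale per gene) of each STAT gene in the 3 shCtrl and the 3 shmiR155HG libraries, where points are libraries, the short line is the group mean and bars are the SD. *STAT2* (16.1 to 18.3 against 21.4 to 23.2 CPM) and *STAT5A* (125.9 to 139.9 against 105.9 to 117.2 CPM) are the genes without overlap between the groups.

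For the other 4 members the groups overlapped. *STAT3*, the factor of IL-21, IL-10 and IL-6 signalling, had 149.9, 156.5 and 155.9 CPM in the shCtrl and 159.2, 152.9 and 157.4 CPM in the shmiR155HG libraries. Its log2 fold change was 0.023, with a 95% interval from −0.063 to 0.11 (adjusted p = 0.784 in edgeR). *STAT5B* had 97.5, 107 and 109.3 CPM in the shCtrl and 111.8, 102.1 and 101.5 CPM in the shmiR155HG libraries, with a log2 fold change of 0.0076 (interval −0.10 to 0.12, adjusted p = 0.953). For these 2 genes the interval leaves out any change as large as the one measured for *STAT5A*.

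*STAT4*, which IL-12 activates to induce *IFNG*, had 34.4, 36.8 and 32.1 CPM in the shCtrl and 34.6, 35.1 and 31.6 CPM in the shmiR155HG libraries. The log2 fold change of *STAT4* was −0.028 (interval −0.19 to 0.14, adjusted p = 0.867 in edgeR). *STAT6*, the factor of IL-4 and IL-13, had 26.7, 25.6 and 26.9 CPM against 25.9, 26.6 and 26.3 CPM, a log2 fold change of −0.0065 (interval −0.19 to 0.17, adjusted p = 0.976). These intervals are wider than those of *STAT3* and *STAT5B*, which had higher counts. The median log2 fold change over the 6 members was 0.00058, and that over all genes tested was 0.00097.

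**Figure D2:**
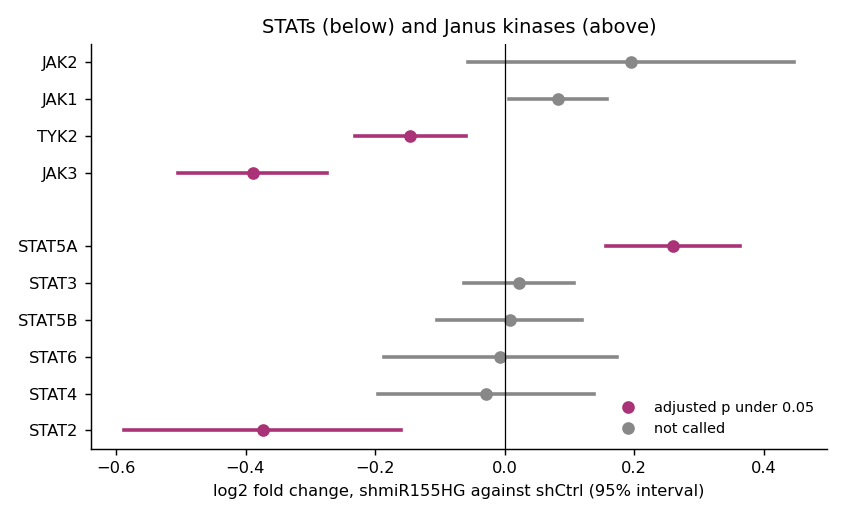
Log2 fold change of shmiR155HG against shCtrl (horizontal axis) with its 95% interval for the 6 STAT genes and the 4 Janus kinase genes, coloured where the adjusted p was under 0.05. The interval of *STAT5A* (0.16 to 0.36) lies above 0, those of *STAT2*, *JAK3* and *TYK2* lie below 0, and that of *JAK1* lies just above 0 with an adjusted p of 0.141.

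STAT5A and STAT5B are close paralogs that bind the same DNA element, so their mRNAs were also compared with each other. The *STAT5A* share of the summed counts was 53.6%, 49.7% and 51.7% in the shCtrl and 54.9%, 57.8% and 55.4% in the shmiR155HG libraries. The mean share was 51.7 ± 1.93% in shCtrl and 56.0 ± 1.58% in shmiR155HG cells (SD, n = 3), and the groups did not overlap (p = 0.1 in a two-sided exact permutation test, the lower limit for 3 libraries against 3). On the log2 scale, the ratio of *STAT5A* to *STAT5B* was 0.25 higher in shmiR155HG cells, at 0.097 ± 0.11 in shCtrl and 0.35 ± 0.093 in shmiR155HG cells. Among all 15 pairs of members, the log2 ratio did not overlap between the groups in 9, which are the 9 pairs with *STAT2* or *STAT5A* in them, each at an exact permutation p of 0.1 and an adjusted p of 0.167 over the pairs. The largest shift was that of *STAT2* against *STAT5A*, −0.63, from −2.33 ± 0.069 to −2.96 ± 0.14. These ratios are formed from the same values as the changes of the single genes, so they are not separate evidence.

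When the 2 STAT5 genes were counted as 1, so that reads assigned to the wrong paralog no longer matter, the sum was 210.1, 212.9 and 226.5 CPM in the shCtrl and 247.7, 242 and 227.4 CPM in the shmiR155HG libraries. The log2 fold change of the sum was 0.14 (SE 0.041, adjusted p = 0.0165 in edgeR). Its highest shCtrl library, replicate 3, and its lowest shmiR155HG library, replicate 3, lay within 1 CPM of each other. The adjusted p of the sum was over 0.05 without shCtrl replicate 1 (0.0786), without shCtrl replicate 2 (0.0832), without shmiR155HG replicate 1 (0.116) and without shmiR155HG replicate 2 (0.0881).

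**Figure D3:**
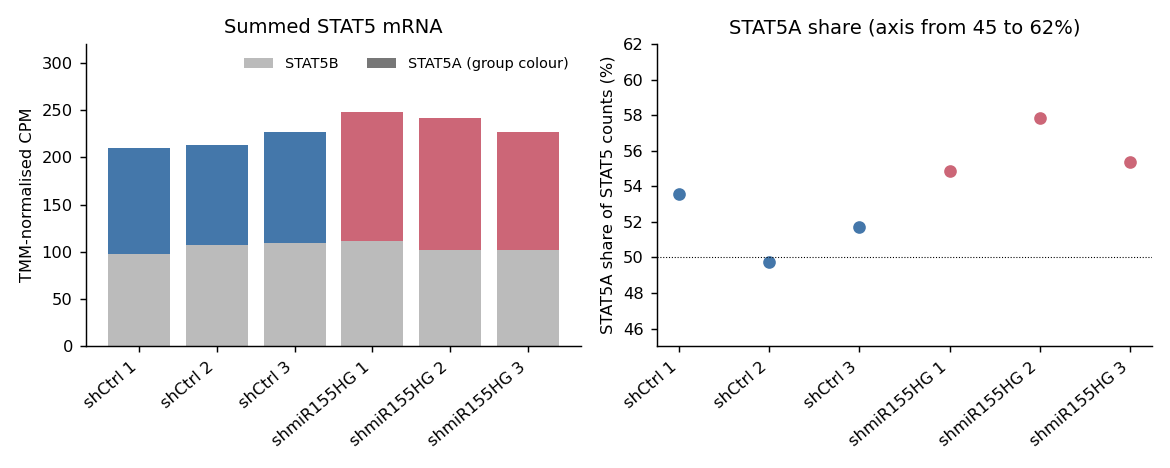
Left, summed normalised CPM of *STAT5B* (grey) and *STAT5A* (group colour) in each library, with the axis starting at 0. Right, *STAT5A* as a percent of the summed *STAT5A* and *STAT5B* counts, on an axis from 45 to 62% with a dotted line at 50%, where the shCtrl libraries lie between 49.7 and 53.6% and the shmiR155HG libraries between 54.9 and 57.8%.

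Counts of a gene can be affected by those of a gene beside it, so the genes around the members are given. No row of the count table overlaps *STAT2* or *STAT3*. The lncRNA rows that overlap *STAT4* or *STAT5B* had at most 34 counts in a library, against at least 1058 for *STAT4* and 3395 for *STAT5B*. *STAT6* overlaps *NAB2*, which encodes a corepressor of EGR factors, by 69 bases on the opposite strand, and also *LRP1*, with at most 7 counts. *NAB2* had 7.04, 7.46 and 6.31 CPM in shCtrl and 13.9, 10.3 and 11.8 CPM in shmiR155HG libraries and rose by 0.79 on the log2 scale (SE 0.16, adjusted p = 0.000624 in edgeR), beside a *STAT6* level that differed by −0.0065.

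With the 2 nearest tested genes on each side of each member, 16 genes that are not members were reached, of which 1 was higher and 5 were lower, against the 15.3% of all genes called. Besides *NAB2*, these included *TIMELESS*, a gene of DNA replication fork stability, near *STAT2* (−0.15, SE 0.045, adjusted p = 0.0242). Near *STAT6* they included *NEMP1*, of the inner nuclear membrane (−0.20, adjusted p = 0.0137), and *SHMT2*, of mitochondrial one-carbon metabolism (−0.17, adjusted p = 0.00295). Near *STAT3* it was AC067852.2 (−0.43, adjusted p = 0.00708). The nearest tested neighbours of *STAT2*, *IL23A* and *PAN2*, had log2 fold changes of −0.51 (SE 0.33, adjusted p = 0.338) and 0.21 (SE 0.084, adjusted p = 0.101). Those beyond the chromosome 17 trio, *GHDC* and *NAGLU*, had −0.023 (adjusted p = 0.911) and 0.27 (adjusted p = 0.0575).

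Genes with the pattern most like a called member were sought among the 8788 other genes whose mean reached 10 CPM, by the root mean square difference of log2 CPM from the shCtrl mean over the 6 libraries. Nearest to *STAT2* were *CRNDE* (0.033), *SHMT1* (0.034) and *CCND3* (0.039), with log2 fold changes of −0.35, −0.36 and −0.35. Nearest to *STAT5A* were *ATF5* (0.027), *MAP3K10* (0.030) and *CAPN8* (0.031), with 0.26, 0.25 and 0.28. The measure picks genes with a fold change like that of the member, so this likeness follows from the choice. Of these 6 genes, *CAPN8* was not called (adjusted p = 0.157 in edgeR).

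Upstream of the STATs, 2 of the 4 Janus kinase genes fell and none rose, where 15.3% of all genes were called. *JAK3*, the kinase bound to the common gamma chain, had 100.8, 94.5 and 97.2 CPM in the shCtrl and 70.3, 76.0 and 77.2 CPM in the shmiR155HG libraries, with no overlap. Its change was −0.39 on the log2 scale (SE 0.056, adjusted p = 1.23e-05 in edgeR), close in size to that of *STAT2*. *TYK2*, which serves the receptors of IL-12 and type I interferon, had 225.4, 205.4 and 226.4 CPM against 203.2, 196.3 and 194.5 CPM, a change of −0.15 (SE 0.042, adjusted p = 0.0163). The *TYK2* call was lost without shCtrl replicate 1 or 3 and without shmiR155HG replicate 2 or 3 (adjusted p up to 0.0927), which leaves *JAK3* as the 1 kinase gene called in those fits. *JAK1*, the partner of JAK3 at the IL-2 receptor, had a log2 fold change of 0.08 (interval 0.0069 to 0.16, adjusted p = 0.141), and *JAK2*, the partner of TYK2 at the IL-12 receptor, one of 0.20 (interval −0.056 to 0.45, adjusted p = 0.324).

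Of 24 receptor chains that signal through STATs, 17 passed the filter, of which 3 rose, 4 fell and 10 were not called. The share called was 41.2%, against 15.3% of all genes, and the median log2 fold change was −0.071. *IL2RB*, the signalling beta chain for IL-2 and IL-15, rose from 1006 ± 44.9 to 1270 ± 17.8 CPM (log2 fold change 0.34, SE 0.032, adjusted p = 1.35e-08 in edgeR). *IL21R* and *IL9R*, the private chains for IL-21 and IL-9, rose by 0.33 (SE 0.066, adjusted p = 0.000637) and 0.24 (SE 0.054, adjusted p = 0.00261). *IL4R*, whose chain activates STAT6, fell by 0.45 (SE 0.057, adjusted p = 1.75e-06). *IL12RB2*, the IL-12 receptor chain that recruits STAT4, fell from 96.1 ± 4.75 to 73.3 ± 3.81 CPM (−0.39, SE 0.058, adjusted p = 1.80e-05). *CSF2RB* and *IFNGR1* fell by 0.35 (adjusted p = 0.00190) and 0.35 (adjusted p = 0.00307). *IL2RA* had a log2 fold change of 0.013 (adjusted p = 0.954), *IL2RG*, the common gamma chain, one of 0.072 (adjusted p = 0.171), and *IL12RB1* one of −0.20 (adjusted p = 0.0519).

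Of 21 negative regulators, 17 passed the filter, of which 3 rose and 3 fell, with a median log2 fold change of 0.011. The share called was 35.3%, against 15.3% of all genes. *CISH*, for a feedback inhibitor induced by STAT5, had 518.1, 518.5 and 580.9 CPM in the shCtrl and 577.4, 592.6 and 581 CPM in the shmiR155HG libraries. It rose by 0.11 (SE 0.038, adjusted p = 0.0381 in edgeR), with the groups overlapping. *SOCS7* rose by 0.25 (SE 0.061, adjusted p = 0.00527) and *SOCS4* by 0.14 (SE 0.046, adjusted p = 0.0392). The phosphatase genes *PTPRC*, which encodes CD45, and *PTPN1* fell by 0.25 (adjusted p = 2.84e-06) and 0.21 (adjusted p = 0.00211). *USP18*, which inhibits the type I interferon receptor together with STAT2, fell by 0.42 (SE 0.13, adjusted p = 0.0239). Several of these calls were lost when 1 library was left out. That of *CISH* held only without shCtrl replicate 3 (adjusted p up to 0.225 without the others), that of *SOCS4* only without shCtrl replicate 2 (up to 0.137), and that of *USP18* only without shCtrl replicate 2 or 3 (up to 0.196). *SOCS7*, *PTPRC* and *PTPN1* were called without any 1 of the 6 libraries. *SOCS1*, *SOCS2* and *SOCS3* were not called, with log2 fold changes of 0.20 (adjusted p = 0.297), −0.016 (adjusted p = 0.913) and 0.39 (SE 0.39, adjusted p = 0.573).

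Of 9 genes for partners and coactivators of STATs, all passed the filter. Where 15.3% of all genes were called, 2 of these 9 (22.2%) rose. They were the histone acetyltransferase genes *CREBBP* (0.27, SE 0.046, adjusted p = 0.000101 in edgeR) and *EP300* (0.15, SE 0.046, adjusted p = 0.0262), which are coactivators of many factors. The *EP300* call held only without shCtrl replicate 3 and was lost without each of the other 5 libraries (adjusted p up to 0.123), while *CREBBP* was called in all 6 of these fits. *IRF9*, the DNA-binding partner of STAT2 in ISGF3, had 20.8 ± 0.801 CPM in shCtrl and 18.4 ± 1.89 CPM in shmiR155HG cells, or −0.18 on the log2 scale (SE 0.11, adjusted p = 0.305). The remaining 6 lay between −0.15 for *NMI* (adjusted p = 0.0637) and 0.057 for *CRKL* (adjusted p = 0.384).

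Genes known as targets of each STAT were then examined, with the lists sharing some genes. Over the 5 target lists, 34 of the 60 genes that passed the filter were called, 14 higher and 20 lower, where 15.3% of all genes were called. These lists, and those of receptors, regulators and partners above, were chosen with earlier results of these data known. Their shares of called genes are therefore not independent evidence. *IFNG*, *IL12RB2*, *IL18R1*, *CCND3*, *IL10* and *IL4R* are among the targets that the study selected for RT-qPCR in these cells, as was *JAK3*, so their direction is not independent evidence. The study also lists qPCR primers for *IL18RAP*, so the same caution applies to that gene.

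For STAT2, 24 of 27 ISGF3 targets passed the filter, of which 9 fell, 2 rose and 13 were not called, with a median log2 fold change of −0.18. The antiviral GTPase gene *MX1* had 12.5, 10.1 and 11.7 CPM in the shCtrl and 6.05, 5.04 and 5.11 CPM in the shmiR155HG libraries, and fell by 1.08 on the log2 scale (SE 0.16, adjusted p = 2.07e-05 in edgeR). *XAF1*, a proapoptotic gene, fell by 0.61 (SE 0.10, adjusted p = 9.14e-05), and *OAS1*, a sensor of double-stranded RNA, fell by 0.85 on few counts (SE 0.28, adjusted p = 0.0396). In the other direction, *IFIT3* rose from 36.7 ± 1.56 to 49.9 ± 0.882 CPM (0.45, SE 0.070, adjusted p = 4.08e-05) and *RSAD2*, which encodes viperin, rose by 0.35 (SE 0.075, adjusted p = 0.00169). The *OAS1* call was lost without each library except shCtrl replicate 1 (adjusted p up to 0.246). Of the other ISGF3 targets called lower, *IFIH1* was lost in 3 and *USP18* in 4 of the 6 fits without 1 library (adjusted p up to 0.192 and 0.196). In these fits 6 to 8 ISGF3 targets were called lower. *IFIT1* and *IFIT2*, genes of the same family as *IFIT3*, had 0.066 (adjusted p = 0.840) and −0.0017 (adjusted p = 0.995). The ISGF3 targets therefore did not move in 1 direction.

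For STAT5, 14 of 15 targets passed the filter, of which 6 rose and 3 fell, with a median log2 fold change of 0.10. The 6 include *CISH*, whose call was lost in 5 of the 6 fits without 1 library (adjusted p up to 0.225 in edgeR). *MYC*, a driver of cell growth, rose from 383.6 ± 20.9 to 483.5 ± 6.44 CPM (0.33, SE 0.037, adjusted p = 1.59e-07 in edgeR). The survival kinase genes *PIM1* and *PIM2* rose by 0.17 (adjusted p = 0.000245) and 0.49 (SE 0.11, adjusted p = 0.00240), and *CCND2*, which encodes cyclin D2, rose by 0.17 (adjusted p = 0.00121). *CCND3*, for cyclin D3, fell from 243 ± 8.50 to 190.2 ± 4.83 CPM (−0.35, SE 0.039, adjusted p = 1.98e-07). The cytokine genes *OSM* and *LTA* fell by 0.38 (adjusted p = 0.0178) and 0.24 (adjusted p = 2.06e-05), where the *OSM* call was lost without shCtrl replicate 1 or 3 and without shmiR155HG replicate 2 or 3 (adjusted p up to 0.13). *BCL2* and *BCL2L1* had 0.0057 (adjusted p = 0.969) and 0.091 (adjusted p = 0.245).

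For STAT4, 9 of 11 targets passed the filter, of which 5 fell and 2 rose, with a median log2 fold change of −0.20, while *STAT4* itself had −0.028. *IL18RAP* and *IL18R1*, which encode the IL-18 receptor chains, fell by 1.48 (SE 0.15, adjusted p = 5.36e-08 in edgeR) and 0.75 (SE 0.069, adjusted p = 5.51e-09). *IFNG* fell from 168.5 ± 7.07 to 126.7 ± 4.23 CPM (−0.41, SE 0.045, adjusted p = 1.40e-07). *TBX21*, for the NK cell factor T-bet, rose by 0.27 (SE 0.037, adjusted p = 4.99e-06), and the kinase gene *MAP3K8* rose by 0.45 (SE 0.11, adjusted p = 0.00736, but 0.0525 without shCtrl replicate 2).

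For STAT3, 15 of 20 targets passed the filter, of which 5 rose and 2 fell, with a median log2 fold change of 0.091. *IL10* fell from 76.5 ± 4.90 to 53.6 ± 3.78 CPM (−0.51, SE 0.067, adjusted p = 2.47e-06 in edgeR) and *TIMP1*, a protease inhibitor gene, fell by 0.35 (adjusted p = 6.31e-05). *FOS* and *BCL3* rose by 0.36 (SE 0.12, adjusted p = 0.0345) and 0.18 (SE 0.050, adjusted p = 0.0104), beside *MYC* and *PIM1*, which also stand in the STAT5 list. Without shmiR155HG replicate 2 or 3, the STAT3 targets called higher numbered 3, since *FOS* and *BCL3* were then lost (adjusted p up to 0.203 and 0.0785). The *FOS* call was also lost without shCtrl replicate 1 or 2. For STAT6, only 6 of 12 targets passed the filter, of which 3 rose and 1, *IL4R*, fell. The 3 include *CISH*, whose call was lost in 5 of the 6 fits without 1 library. *GATA3* rose by 0.54 (SE 0.11, adjusted p = 0.00107), and *EGR2* rose from 1.90 ± 0.637 to 6.53 ± 0.294 CPM (1.78, SE 0.25, adjusted p = 7.47e-06).

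**Figure D4:**
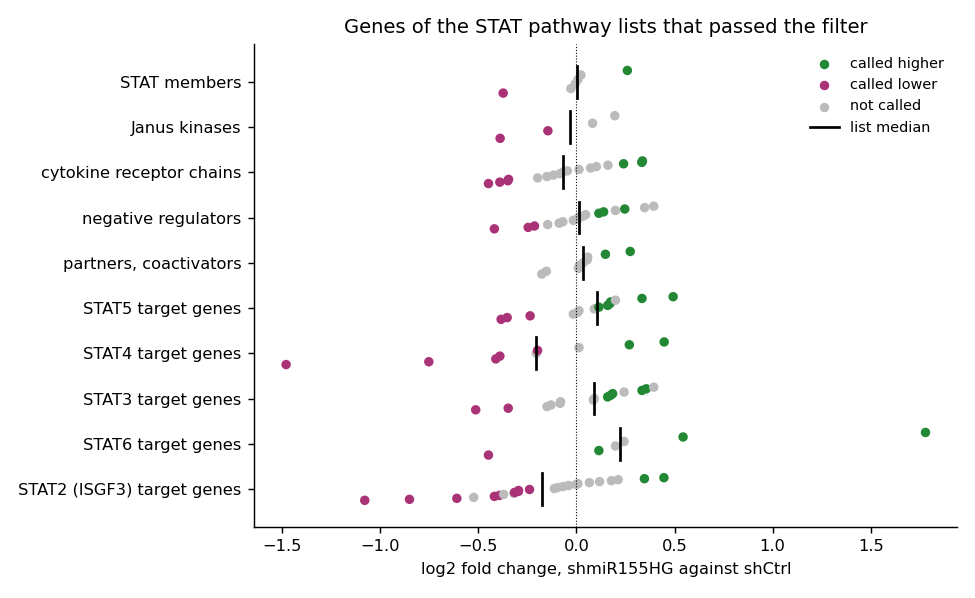
Log2 fold change of shmiR155HG against shCtrl (horizontal axis) for each gene that passed the filter in the lists of STAT members, upstream genes, regulators, partners and targets, coloured by call, with the list median as a black line. Genes called higher and genes called lower both occur in every target list, and the medians of the STAT4 and ISGF3 lists (−0.20 and −0.18) lie below 0 while those of STAT5, STAT3 and STAT6 lie above it.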

How the data were processed

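The data were whole-number counts per gene from RNA-seq of NK92 cells, 3 shCtrl and 3 shmiR155HG libraries. For these deposited counts, HISAT2 (hg38) and StringTie with the -e option were run by the authors, and prepDE.py3 merged the output without normalization. Annotation release, strand setting and the read length given to prepDE.py3 are not given in the sources used here, so a count may not equal 1 read. Groups followed sample titles, since the treatment field names a differently numbered gene for shmiR155HG replicates 2 and 3.

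Genes with CPM above 1 in at least 2 libraries were kept and scaled by TMM, as normalised CPM. Groups were compared with the robust quasi-likelihood fit of edgeR (two-sided, Benjamini-Hochberg over all 12263 genes), without a replicate block. The study used edgeR's exact test with P under 0.01 and a fold over 1.2. SE is that of the log2 fold change. R 4.3.3, edgeR 4.0.16, limma 3.58.1 and DESeq2 1.42.0 were used, and the tests were checked on simulated counts. Of the 36601 gene IDs, 36366 matched GENCODE release 44. Members, lists and tests were chosen with earlier results of these data known. Named list genes are up to 4 per direction with the largest change among those called, with a mean of at least 1 CPM and no overlap; genes beyond this, such as *IL2RA*, *CISH*, *SOCS1* and *IFIT1*, were chosen after their values were seen. A further gene next to *STAT4* is not reported here. Alternatives covered scaling, filter, test, halved counts, the block and each library left out.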

Additional observations from a re-analysis of the deposited data

How the results depend on the processing

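The result of each STAT gene was recomputed in 16 alternative settings, the sum of *STAT5A* and *STAT5B* in 14 and the difference between them in 7. *STAT2* was lower in all 16 (−0.42 to −0.33) and called in all except without shmiR155HG replicate 2, and *STAT5A* was higher in all 16 (0.22 to 0.30) and called in all except under the study's stated rule (exact test, P under 0.01, fold over 1.2) as applied here, where its value was 0.26. The number of members called was 1 in these 2 settings and 2 in the others. Leaving out 1 library at a time turned the sign of *STAT4* (−0.074 to 0.022), *STAT5B* (−0.040 to 0.043) and *STAT6* (−0.027 to 0.010), none of which was called in any setting. The sum of *STAT5A* and *STAT5B* ranged from 0.12 to 0.18 without single libraries and was 0.14 but not called under the study's rule. The difference between *STAT5A* and *STAT5B* ranged from 0.20 to 0.31. Over the whole table, 551 genes were higher and 466 lower under that rule in this fit, which is not the study's own list (54.2% of the called genes higher, against 47.5% in the main test), and 580 to 891 were higher without single libraries. The study's rule called 1 Janus kinase gene lower, 0 negative regulators higher and 1 lower, 1 partner gene higher, and 2 targets of STAT5 and 2 of STAT3 higher. Without single libraries the calls were 1 to 2 Janus kinase genes lower, 1 to 2 negative regulators higher, 1 to 2 partner genes higher and 0 to 1 lower, 1 to 2 STAT4 targets higher and 3 to 5 STAT3 targets higher. With no filter 1 partner gene was lower, and with filterByExpr 1 negative regulator was higher. The study's rule differs from the main test in the test, the p threshold and the fold limit together. The cause of these shifts was not tested. No called gene of the pathway and target lists was called with the opposite sign in any setting. Same-numbered libraries of the groups did not deviate together (r = −0.018, 0.00098 and 0.0035 across genes), so the numbers were not taken as pairs. With a replicate block *STAT2* had −0.37 (adjusted p = 0.0209 in edgeR) and *STAT5A* 0.26 (adjusted p = 0.00196), the block changed no call of a member but ended those of *FOS*, *OAS1* and *SOCS4*, and 1738 genes were called against 1874.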

Other observations

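In the pathway and target lists, 12 genes were listed at 0 counts in all 6 libraries. They include *IFNGR2*, *IL6R*, *IL7R* and *SOCS6*, which were chosen after their values were seen. *IFNGR2* is a gene that most cells use, while its partner *IFNGR1* had 42.6 ± 3.27 CPM in shCtrl cells (SD, n = 3), so a 0 in this table was not read as absence of the mRNA.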
